A study of Mus musculus with 14 samples.

Results

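The non-clonal T cells of 2 T cell nodules were described here, that is, the T cells lying beside a dominant T cell clone without carrying its receptor. They were chosen by their T cell receptor β chains (TRB). In each TCR-profiled nodule a cell was taken when it had at least 1 TRB contig and none of its contigs carried the library's most frequent TRB key, that is, its V call, J call and junction (CDR3) sequence as 1 unit. Its barcode also had to be in the matched RNA library with at most 10% mitochondrial transcripts. The rule took 351 cells from mouse 30 and 420 cells from mouse 32, in all 771 of the 77442 cells deposited for the 7 mice and of the 75503 cells left by the filters of the study. They made up 15.1% of the 2324 TRB-bearing barcodes of mouse 30 and 8.05% of the 5217 of mouse 32. The dominant clones, used for comparison, held 1963 and 4754 cells.

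All 7 mice were cKO mice, Eif3e fl/fl Cγ1Cre Rosa26-YFP LSL on the C57BL/6J background, that had become sick and carried white nodules. Cre is driven in these mice from the Igγ1 constant region locus and acts in activated B cells, so that T cells are not its intended target. The TCR-profiled nodules were taken from the liver of mouse 30 at 14 months and from the spleen of mouse 32 at 12 months. Nodules of 5 other mice were profiled for B cell receptors and supplied T cells for comparison: mouse 27 (liver, 12 months), mouse 29 (lung, 12 months), mouse 31 (spleen, 13 months), mouse 33 (thymus, 16 months) and mouse 34 (lung and thymus, 9 months). The nodule of mouse 27 was grown in a Rag2-/- recipient, a host that makes no T or B cells of its own, and the others were primary. Each mouse gave 1 nodule sample, that of mouse 34 being labelled with both lung and thymus, so that site, age and mouse cannot be told apart. No nodule of a control mouse was analysed here. The 7 RNA libraries kept 6864 to 14057 cells each and held between 19264039 and 123456962 transcript counts.

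A T cell clone descends from 1 cell and carries 1 rearranged receptor, so that cells with the same β chain junction are taken as relatives. CD4+ T cells help other cells through surface ligands and cytokines, CD8+ T cells kill target cells with granzymes and perforin, and both kinds expand after meeting antigen. A few innate-like T cells, invariant NKT cells among them, use a nearly fixed α chain in all animals.

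The β chain junctions show how the clonotypes were told apart. For each clonotype of at least 10 cells the CDR3 nucleotides are printed 5′ to 3′. Capitals mark the bases that lie outside the start shared by most CDR3s with the same V call and outside the end shared by most CDR3s with the same J call in these libraries, an empirical split that used no germline sequence. The clone of each mouse comes first.
mouse 30 dominant clone, TRBV1 and TRBJ2-1, 1963 cells: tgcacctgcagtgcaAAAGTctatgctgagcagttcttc
mouse 30 TRBV16 and TRBJ2-4, 37 cells: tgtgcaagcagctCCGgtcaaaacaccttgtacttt
mouse 30 TRBV3 and TRBJ2-5, 26 cells: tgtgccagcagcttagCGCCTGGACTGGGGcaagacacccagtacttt
mouse 30 TRBV20 and TRBJ2-7, 15 cells: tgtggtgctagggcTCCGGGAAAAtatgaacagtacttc
mouse 30 TRBV10 and TRBJ1-3, 13 cells: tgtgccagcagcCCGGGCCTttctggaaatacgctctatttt
mouse 30 TRBV12-2+TRBV13-2 and TRBJ2-7, 11 cells: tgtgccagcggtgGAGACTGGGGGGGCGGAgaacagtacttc
mouse 30 TRBV3 and TRBJ2-1, 10 cells: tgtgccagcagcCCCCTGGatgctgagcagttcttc
mouse 32 dominant clone, TRBV26 and TRBJ2-5, 4754 cells: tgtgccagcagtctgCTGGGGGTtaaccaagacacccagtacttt
mouse 32 TRBV15 and TRBJ2-1, 39 cells: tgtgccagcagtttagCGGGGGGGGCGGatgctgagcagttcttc
mouse 32 TRBV3 and TRBJ1-1, 29 cells: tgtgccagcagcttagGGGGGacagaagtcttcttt
mouse 32 TRBV5 and TRBJ2-2, 29 cells: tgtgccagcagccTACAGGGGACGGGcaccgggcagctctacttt
mouse 32 TRBV13-2 and TRBJ2-4, 12 cells: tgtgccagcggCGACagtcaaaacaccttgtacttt
mouse 32 TRBV13-1 and TRBJ2-1, 11 cells: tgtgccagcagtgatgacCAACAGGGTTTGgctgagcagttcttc
mouse 32 TRBV1 and TRBJ2-7, 11 cells: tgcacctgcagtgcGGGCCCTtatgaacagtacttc
None of the 771 cells had a CDR3 at 1 base from that of the clone and none carried an α chain (TRA) key of the clone. The clone of mouse 30 had 1 TRA key, and that of mouse 32 had 2, in 3598 and 3094 of its 4306 TRA-bearing cells and together in 2386. No TRB key was shared between the mice.

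Some libraries and cells stood apart and were followed through the results. Of the members, 29 barcodes in mouse 30 and 41 in mouse 32 also occurred in another RNA library, and 1 barcode was shared between the 2 sets of members. Any pair of RNA libraries shared between 96 and 286 barcodes. More than 1 TRB key was found in 4 and 3 cells. At least 2 transcript counts of B cell, myeloid, neutrophil or haemoglobin genes were found in 22 and 113 cells, and no doublet caller was run. A strict set without the last 2 groups kept 325 and 306 cells. In bulk sums of this kind, fewer cells of a type and less RNA per cell cannot be told apart.

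Most of the selected cells carried T cell transcripts. Expression is given as UMIs, single counted transcripts, per 1000000 UMIs summed over the cells (CPM), with Poisson 95% intervals that cover counting error only. Cd3e, a chain of the receptor complex, stood at 509.5 CPM (463.9 to 558.4) in mouse 30 and 334 CPM (308 to 361) in mouse 32, and was seen in 62.1% and 69.3% of the cells. The neutrophil-gated cells of the same libraries, used below for background, were chosen to have no Cd3e UMI. They therefore give no background level for this gene. A T cell gate of at least 2 UMIs of Cd3d, Cd3e, Cd3g, Trac, Trbc1 or Trbc2 with no B cell gene was passed by 88.0% and 81.0% of the members and by 95.4% and 93.4% of the clone cells. The median depth was 1975 and 3317 UMIs per member, beside 1987 and 3854 UMIs per clone cell.

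Ccl5, a chemokine of antigen-experienced T cells, was among the transcripts that set these cells apart from the dominant clones. It reached 5588 CPM in mouse 30 and 6159 CPM in mouse 32, against 204 and 99.4 CPM in the dominant clones, and was seen in 160 of 351 and 210 of 420 members. In the neutrophil-gated cells, which should lack it, 4.19% and 3.18% had a Ccl5 UMI. Nkg7, a membrane protein of cytotoxic granules, was at 592 and 666 CPM in the members and at 26.2 and 68.0 CPM in the clones, although 31.2% of the neutrophil-gated cells of mouse 32 also had an Nkg7 UMI. Eomes, a transcription factor of memory and effector T cells, was at 168 and 97.5 CPM against 2.56 and 0.846 CPM. These genes were not particular to the members. In T cells of the BCR-profiled nodules, after scaling for composition, Ccl5 was between 1524 and 16178 CPM. Nkg7 was between 144 and 2300 CPM there and Eomes between 83.1 and 341 CPM.

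The 2 nodules differed in which effector genes the members carried. In mouse 30, Gzmk, a granzyme of effector memory cells, was at 837 CPM, Il10, an inhibitory cytokine, at 728 CPM and Ifng, the macrophage-activating interferon, at 502 CPM. In mouse 32 the same genes were at 156 CPM for Gzmk, 111 CPM for Il10 and 198 CPM for Ifng. Gzma and Gzmb, the granzymes of killer cells, showed the other order, with 141 and 109 CPM in mouse 30 and 1769 and 838 CPM in mouse 32. The intervals of each of these genes were apart between the mice, but with 1 nodule at each site no test between them was possible.

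**Figure D1:**
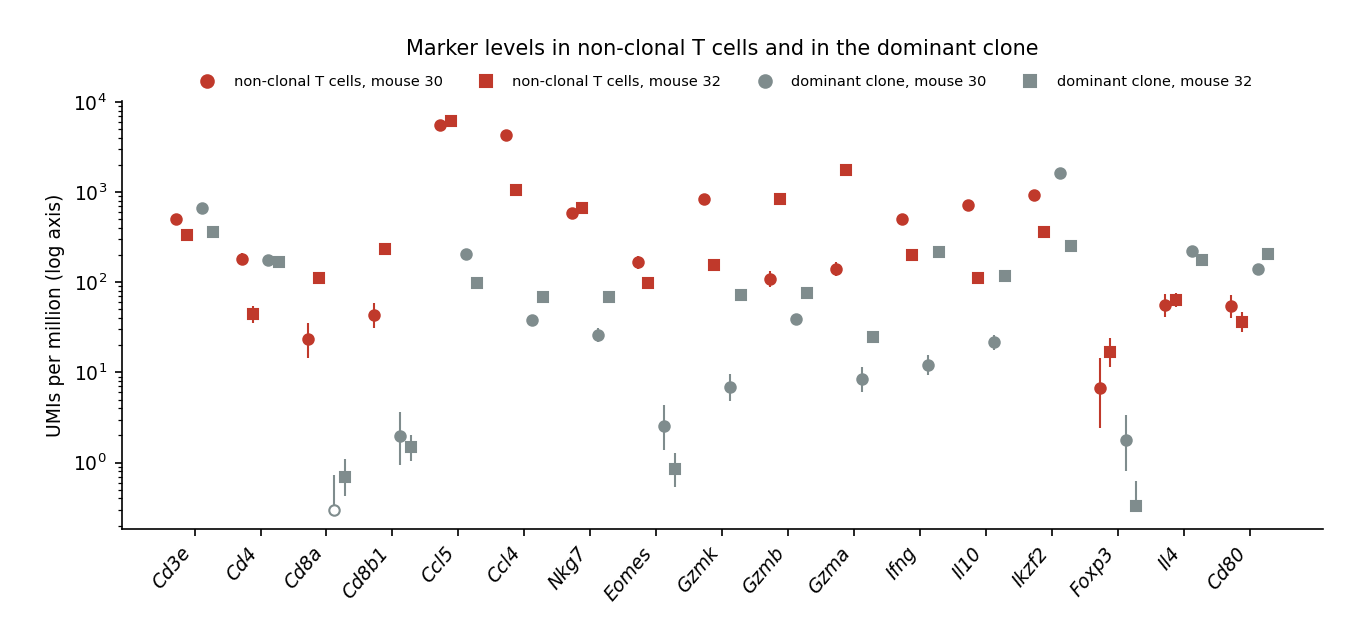
Summed level of 17 genes in non-clonal T cells (red) and in dominant clone cells (grey) of mouse 30 (circles) and mouse 32 (squares), in CPM on a log axis with Poisson 95% intervals. An open symbol marks a gene without a UMI, drawn at the floor of the plot. Ccl5, Nkg7 and Eomes lay higher in the non-clonal cells of both mice, whereas Cd3e lay close together.

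The label's markers were only partly met. Cd8a, a chain of the CD8 coreceptor, was at 23.4 CPM (14.5 to 35.7) in mouse 30, with 14 of 351 cells bearing a UMI, and at 112 CPM (97.0 to 128) in mouse 32, with 99 of 420 cells. Cd8b1, the other chain, stood at 43.4 and 235 CPM. Cd4, the coreceptor of helper cells, was at 184 and 44.4 CPM, and 2.31% and 1.91% of the neutrophil-gated cells had a Cd4 UMI. The members of mouse 30 therefore carried Ccl5, Eomes and Gzmk with little Cd8a.

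Coreceptor gates gave the same contrast per cell. A cell was gated as CD8 when it had a Cd8a or Cd8b1 UMI and no Cd4 UMI, and as CD4 in the reverse case. In mouse 30, 21 cells were CD8-gated, 108 were CD4-gated, 3 had both and 219 had neither. In mouse 32, 139 were CD8-gated, 59 were CD4-gated, 5 had both and 217 had neither. CD8-gated cells were thus 16.3% (10.4 to 23.8, exact binomial) of the singly gated members in mouse 30 and 70.2% (63.3 to 76.5) in mouse 32. After thinning every cell to 1000 UMIs, which left out 15 and 2 shallower cells, the shares were 25.4% and 75.7%. Among the clone cells the same share was 0.319% and 0.859%. Many members stayed ungated. The ungated members had medians of 1719 and 2525 UMIs and the CD8-gated ones of 2380 and 4281, but ungated cells of mouse 32 reached 46436 UMIs. The part of depth in the ungated cells was not tested.

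Cytotoxic and chemokine transcripts were not confined to CD8-gated cells. In mouse 30, 57 of 108 CD4-gated members (52.8%, 42.9 to 62.5) had both Gzmk and Ccl5 UMIs, and 10 of 21 CD8-gated members had both. In mouse 32, 6 of 59 CD4-gated members (10.2%, 3.82 to 20.8) had both, beside 81 of 139 CD8-gated members (58.3%). Of the CD8-gated members of mouse 32, 72 had Gzmk with Gzmb, 42 had Gzmb without Gzmk and 10 had Gzmk without Gzmb. Of its CD4-gated members, 46 of 59 had none of Gzmk, Gzmb, Ccl5 and Eomes.

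CD8-gated and CD4-gated members were compared within each mouse on counts summed per gate, with the mouse as a block, since both sums come from 1 nodule. Gene values of this comparison are CPM after scaling by TMM, a correction for composition, and Cd4, Cd8a and Cd8b1 were left out. With edgeR's quasi-likelihood test and Benjamini-Hochberg adjustment, 39 of 4774 genes (0.817%) were called at an adjusted p of 0.05, 15 higher (0.314%) and 24 lower (0.503%) in the CD8-gated cells. Of these, 37 moved the same way in both mice, and the exceptions were Car1 and Gm44206.

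Gzma, Gzmb, Klrc1 and Klrd1 rose in the CD8-gated cells. Gzmb was at 793 CPM in the CD8-gated and 54.6 CPM in the CD4-gated cells of mouse 30, and at 1847 and 150 CPM in mouse 32, a log2 difference of 3.70 ± 0.38 (SE, adjusted p = 4.04e-07). Gzma was at 1057 and 44.2 CPM in mouse 30 and at 4236 and 246 CPM in mouse 32, a log2 difference of 4.28 ± 0.35 (adjusted p = 2.87e-09). All 72 Gzma UMIs of the CD8-gated cells of mouse 30 came from 1 of 21 cells, whereas in mouse 32 Gzma was seen in 92 of 139. Klrc1, an NK receptor that binds nonclassical class I molecules, stood at 88.1 and 153 CPM in the CD8-gated cells and was without a UMI in the CD4-gated cells of both mice. Its partner chain Klrd1 was at 44.0 and 68.5 CPM against 2.60 and 0 CPM. In the CD8-gated cells of mouse 30 these values rested on 6 Klrc1 and 3 Klrd1 UMIs. The gene model Gm44174 behaved like Klrc1, at 132 and 135 CPM against 0 in both mice. In mouse 32 a single clonotype, TRBV15 with TRBJ2-1, gave 37 of the 139 CD8-gated cells. Before TMM scaling it had Klrc1 at 361 CPM and Gzma at 7849 CPM, against 39.0 and 975 CPM in the other members. Its part in these differences was not tested.

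Among the fixed gene lists, 2 of 7 tested effector memory genes were called higher (Ccl5 and Nkg7) and 6 of 7 were fitted higher. Their median log2 difference was 1.76 beside −0.03 over all genes tested. Ccl5 was at 7529 and 14315 CPM in the CD8-gated cells against 5090 and 1803 CPM in the CD4-gated cells. Of 7 cytotoxic granule genes 2 were called higher (Gzma and Gzmb) and 6 were fitted higher, with a median of 1.08. Cd7, Chsy1, F2r and Schip1 also rose, by log2 differences of 2.25 to 2.46. Gzmk was at 470 and 346 CPM in the CD8-gated cells and at 1161 and 69.2 CPM in the CD4-gated cells, in opposite order in the 2 mice (adjusted p = 0.974).

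Cd40lg, Areg, Cd83, Cxcl10 and Atf3 were lower in the CD8-gated cells, whereas none of 8 immediate early genes was called. Cd40lg, the ligand by which helper cells activate B cells, was at 14.7 and 14.3 CPM against 78.1 and 146 CPM (log2 difference −3.21 ± 0.55, adjusted p = 0.00197). Areg, the growth factor amphiregulin, was at 44.0 and 70.1 CPM against 120 and 261 CPM. In the CD8-gated cells of mouse 30 these values rested on 1 Cd40lg and 3 Areg UMIs. Areg was the only 1 of 7 helper genes tested that was called, while 5 of the 7 were fitted lower. Cd83, an activation marker, was at 0 and 19.1 CPM against 67.7 and 123 CPM. Cxcl10, a chemokine induced by interferon, and Atf3, a stress-induced transcription factor, fell by 1.85 and by 2.48 on the log2 scale. Thsd7a, Plagl1, Ext1, Gpm6b, Gbp2, A630023P12Rik and Gm15283 were also among the largest falls and lower in both mice, whereas Gm44206 was higher in the CD8-gated cells of mouse 30. None of 6 regulatory T cell genes tested passed, with a median log2 difference of −0.71.

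The number of calls depended on the block and the tool. Without the block 2 genes were called (Gm44174 and Klrc1), and DESeq2 called 6, all of them among the 39 (Cxcl10, Gm44174, Gzma, Gzmb, Ms4a4b and Nkg7). The strict members gave 16, of which 14 were among the 39. Of the genes named above as called, Gzma, Gzmb, Klrc1, Gm44174, Cd40lg, Areg, Cxcl10, Atf3, Thsd7a, Plagl1 and Gm15283 were among those 14. The others were not, with an edgeR adjusted p in the strict members of 0.220 for Klrd1, 0.0636 for Cd7 and 0.0616 for Cd83.

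**Figure D2:**
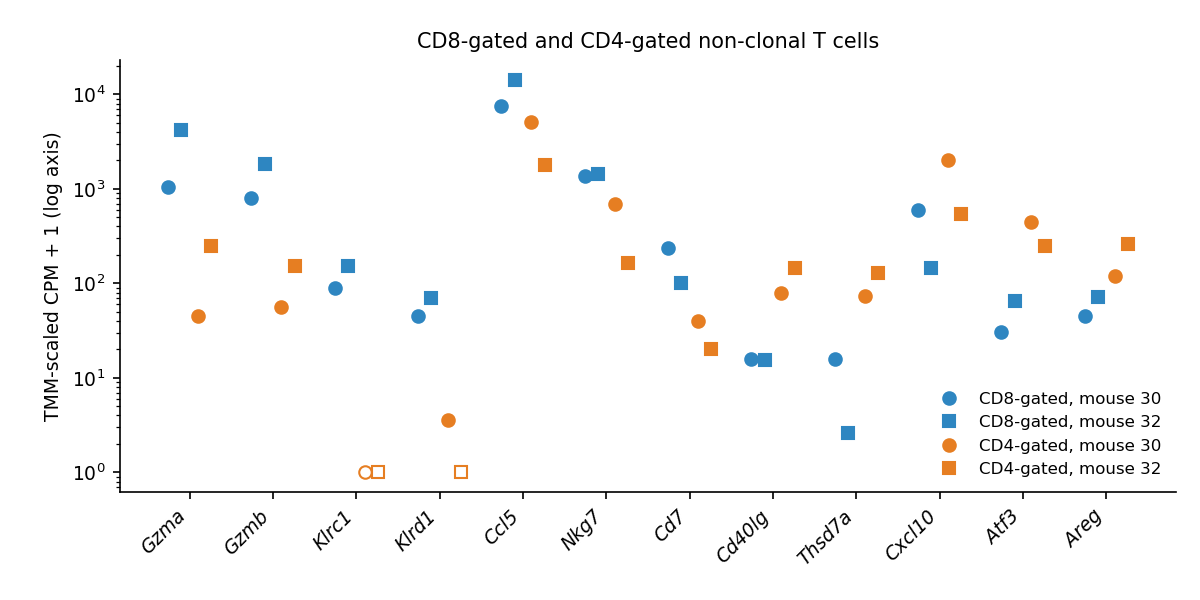
TMM-scaled CPM + 1 on a log axis of 12 genes in CD8-gated (blue) and CD4-gated (orange) non-clonal T cells of mouse 30 (circles) and mouse 32 (squares), 1 point per mouse and gate. Open symbols mark genes without a UMI. Both blue points lie above both orange ones for Gzma, Gzmb, Klrc1, Klrd1 and Cd7, and below them for Cd40lg and Thsd7a.

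The members fell into many clonotypes, counted as cells that share a TRB key. Mouse 30 had 161 clonotypes and mouse 32 had 223, and 112 and 177 of them were seen in 1 cell only. Clonotypes of at least 5 cells, called expanded here, numbered 13 in mouse 30 with 155 cells (44.2% of members) and 12 in mouse 32 with 166 cells (39.5%). The largest held 37 cells (10.5% of members) and 39 cells (9.29%), and the inverse Simpson index, an effective number of equally large clonotypes, was 37.8 and 42.3. A CDR3 counts as the same clonotype only under 1 V call, and 10.8% and 8.10% of the members had the double call TRBV12-2+TRBV13-2.

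Paired α chains were nearly uniform within the larger clonotypes, a readout that the β chain key did not use. All 23 TRA-bearing cells of TRBV16 and TRBJ2-4 in mouse 30 shared 1 TRA key, as did all 18 of TRBV3 and TRBJ2-5 and all 13 of TRBV20 and TRBJ2-7. In mouse 32, all 23 TRA-bearing cells of TRBV15 and TRBJ2-1 and all 15 of TRBV5 and TRBJ2-2 shared 1 key. The commonest key covered 12 of 15 cells of TRBV3 and TRBJ1-1 and 7 of 10 cells of TRBV13-1 and TRBJ2-1. The CDR3 of TRBV13-2 and TRBJ2-4 was found in 12 cells and, under the double V call, in 5 further cells, and the commonest TRA of both sets was TRAV7-4 with TRAJ22, in 5 of 6 and 2 of 3 TRA-bearing cells. A TRA contig was present in 183 of 351 and 247 of 420 members.

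Most expanded clonotypes showed UMIs of 1 coreceptor only, a count limited by few coreceptor UMIs. TRBV12-2+TRBV13-2 with TRBJ2-7 of mouse 30 had 2 Cd4 UMIs over 11 cells, and TRBV5 with TRBJ2-2 of mouse 32 had 2 over 29. In mouse 30, 8 of the 13 expanded clonotypes had Cd4 UMIs only, 1 had Cd8a or Cd8b1 UMIs only, 1 had both and 3 had neither. In mouse 32, 5 of 12 had Cd4 only, 3 had Cd8 only, 2 had both and 2 had neither. Clonotypes with both included TRBV16 of mouse 30 (23 Cd4 and 1 Cd8b1 UMIs) and TRBV15 of mouse 32 (105 Cd8b1, 48 Cd8a and 1 Cd4 UMIs). The CD8-gated share of singly gated cells was 8.16% in expanded clonotypes and 25.6% among single-cell clonotypes of mouse 30, and 71.6% and 72.3% in mouse 32.

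**Figure D3:**
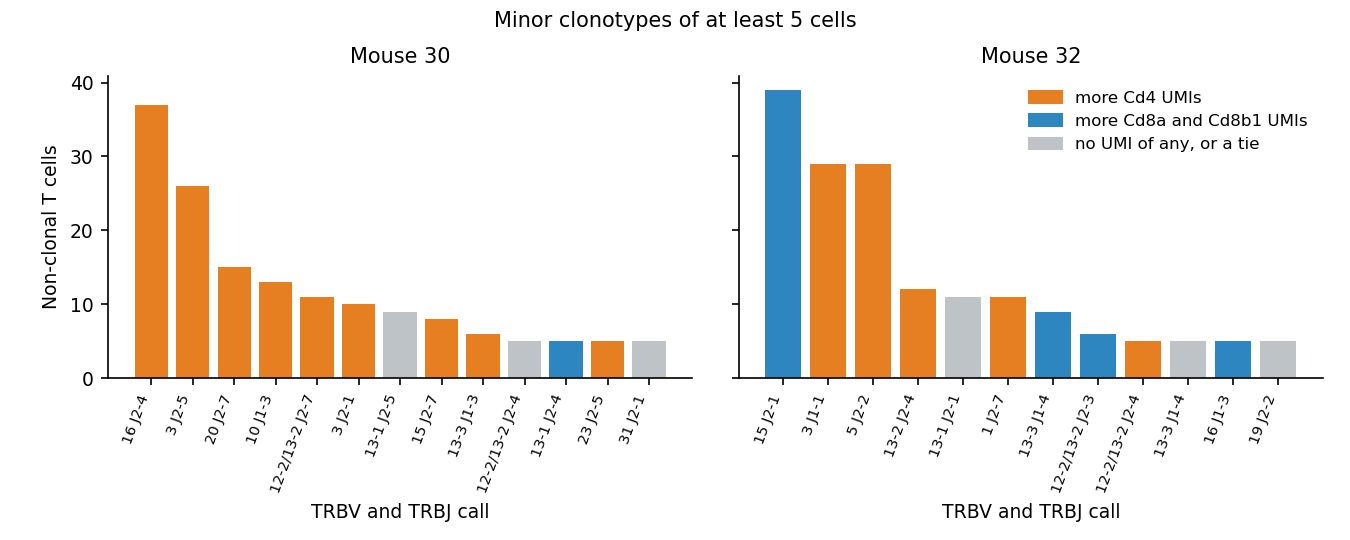
Number of non-clonal T cells in each clonotype of at least 5 cells, by TRBV and TRBJ call, in mouse 30 (left) and mouse 32 (right). Bars are coloured by whether the summed cells held more Cd4 UMIs (orange), more Cd8a and Cd8b1 UMIs (blue), or none or a tie (grey). The largest bar of mouse 30 (37 cells) is orange and that of mouse 32 (39 cells) is blue.

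A pair of CD4 clonotypes of mouse 30 were high in chemokine and cytokine transcripts. They were TRBV16 with TRBJ2-4 and TRBV20 with TRBJ2-7. TRBV16 had 23 Cd4 UMIs beside 1 Cd8b1 UMI, and TRBV20 had 24 Cd4 UMIs and none of Cd8a or Cd8b1. Ccl5 stood at 14452 CPM in the TRBV16 clonotype (36 of 37 cells) and at 11746 CPM in the TRBV20 clonotype (15 of 15 cells). Ccl4, a chemokine that 11.7% of the neutrophil-gated cells also had, was at 12027 and 7048 CPM, and Gzmk at 1777 and 1393 CPM. Il10 was at 2141 and 2326 CPM and Ifng at 1207 and 898 CPM, with Eomes at 387 and 173 CPM. Cells of both clonotypes also had Lag3, an inhibitory receptor, at 456 and 219 CPM. They differed in Ikzf2, the transcription factor Helios, at 1276 and 173 CPM. Mki67, a proliferation marker, was at 22.8 CPM in TRBV16 (2 cells) and at 449 CPM in TRBV20 (5 of 15 cells). Of the 44 Mki67 UMIs in all expanded members of mouse 30, 26 lay in 1 cell, so that the TRBV20 level rests largely on it.

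The other 4 named clonotypes of mouse 30 lacked that set. Ccl4 was without a UMI in the clonotypes of TRBV3 with TRBJ2-5, TRBV10, TRBV12-2+TRBV13-2 and TRBV3 with TRBJ2-1, and Ccl5 had between 0 and 4 UMIs. All 4 had Cd4 UMIs and no Cd8a or Cd8b1 UMI. Their Ikzf2 levels were between 1169 and 1681 CPM and their Tox levels, a regulator of chronically stimulated T cells, between 1160 and 1967 CPM. Il7r, the interleukin 7 receptor of long-lived T cells, stood at 464 to 1280 CPM, Tcf7, a transcription factor of less differentiated cells, at 290 to 542 CPM, and Tnfsf8, the ligand of CD30, at 1063 to 2707 CPM. Hspa1a, a heat shock protein, was at 1969 to 5694 CPM. Il10 in the TRBV3 and TRBJ2-5 clonotype (1010 CPM) came from 4 of 26 cells.

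The largest minor clonotype of mouse 32 was a CD8 clonotype. TRBV15 with TRBJ2-1 had 105 Cd8b1 and 48 Cd8a UMIs beside 1 Cd4 UMI, and 37 of its 39 cells were CD8-gated. Gzma was seen in 39 of 39 cells at 7849 CPM, Gzmb in 38 at 2425 CPM and Ccl5 in 39 at 6216 CPM. Gzmk was at 114 CPM (15 cells) and Eomes at 133 CPM (14 cells). Klrc1 was at 361 CPM in 29 cells and Fasl, the death ligand, at 242 CPM. Tox and Pdcd1, which mark chronically stimulated cells, were at 52.2 and 23.7 CPM.

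The CD4-bearing clonotypes of mouse 32 took another form. Foxp3, the lineage factor of regulatory T cells, was at 102 CPM in TRBV5 with TRBJ2-2 (10 UMIs in 9 of 29 cells), at 90.0 CPM in TRBV13-2 with TRBJ2-4 (7 UMIs in 4 of 12 cells) and at 84.9 CPM in TRBV1 with TRBJ2-7 (2 UMIs). The TRBV5 clonotype also had Ikzf2 at 1084 CPM, Itgae at 112 CPM and Hpgd at 102 CPM. Over all members of mouse 30 and mouse 32, Foxp3 stood at 6.67 and 17.0 CPM and was found in 6 and 26 cells. No Foxp3 UMI was seen in the 29 cells of TRBV3 with TRBJ1-1, which had Cd4, Ikzf2 at 759 CPM, Il7r at 759 CPM and Areg at 450 CPM. The 11 cells of TRBV13-1 with TRBJ2-1 had neither Cd4 nor Cd8 UMIs and held 49 Ccl5 UMIs in 5 cells.

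Single clonotypes also stood apart by single genes. A rule added after values were seen ranked genes carried by at least 30% of a named clonotype by their ratio to the other members of the mouse. In TRBV3 with TRBJ1-1 of mouse 32 the neutrophil genes Camp (4011 against 78.6 CPM, 10 of 29 cells) and S100a9 (5717 against 143 CPM, 14 cells) came first, and 549 of its 556 S100a8 UMIs lay in 1 cell. Next came Zfp981, a zinc finger gene, found in 26 of 29 cells at 1031 CPM, beside 93.7 CPM in the other members and 59.1 CPM in the dominant clone of that mouse, but it was also found in 53.1% of the neutrophil-gated cells there. The dominant clone of mouse 30 had Zfp981 at 1036 CPM and the members of that mouse had 70.1 CPM. Fcer1g, the signalling chain shared by Fc receptors, was found in 10 of 11 cells of TRBV13-1 at 422 CPM against 29.3 CPM in the other members. Agbl4 was found in 33 of 39 cells of TRBV15 in mouse 32 at 437 CPM against 48.9 CPM, and in 9 of 13 cells of TRBV10 in mouse 30 at 957 CPM against 63.6 CPM. Rftn1 was found in 19 of 26 cells of TRBV3 with TRBJ2-5 at 627 CPM against 54.7 CPM.

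**Figure D4:**
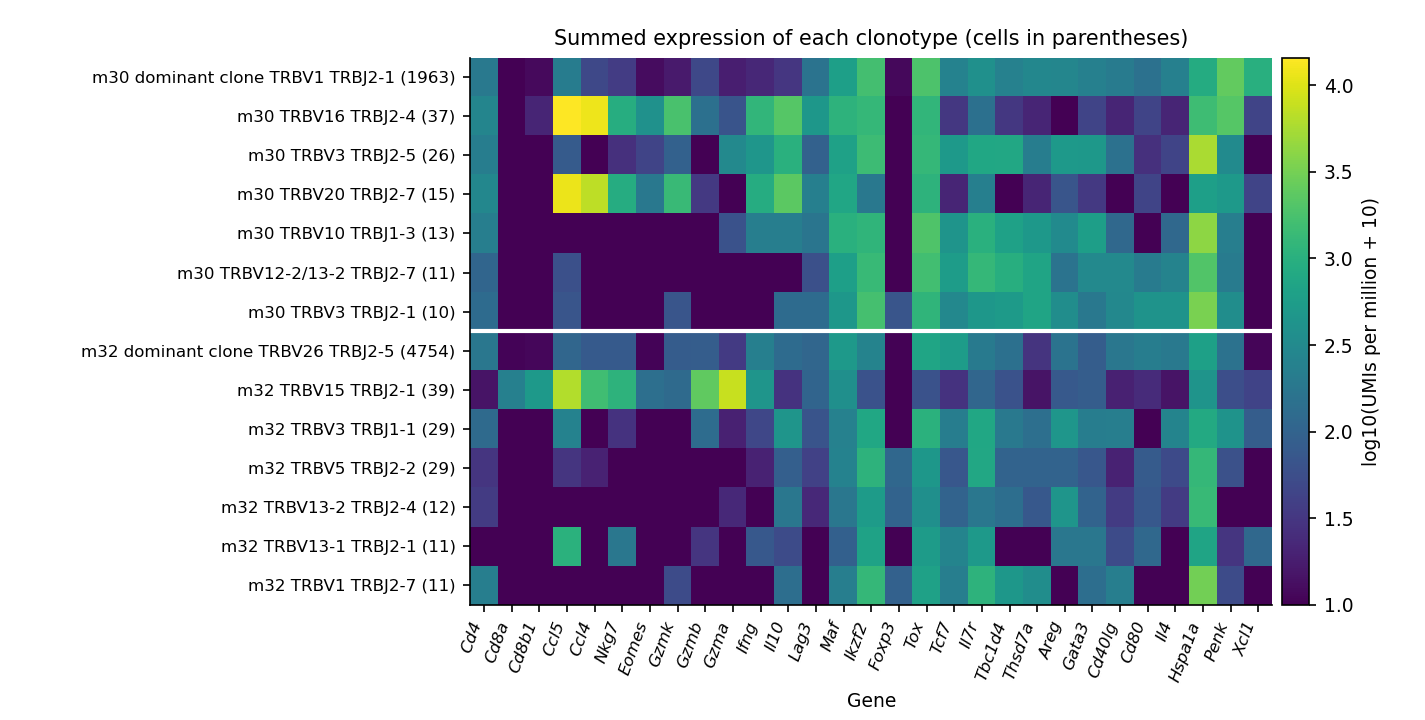
Summed expression of 29 genes (columns) in each dominant clone and in each minor clonotype of at least 10 cells (rows, cell numbers in parentheses), as log10 of CPM + 10, with mouse 30 above and mouse 32 below the white line. TRBV16 and TRBV20 of mouse 30 are bright for Ccl5, Ccl4 and Gzmk, and TRBV15 of mouse 32 is bright for Ccl5, Gzmb and Gzma.

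Invariant NKT receptors were present in mouse 32. The α chain TRAV11 with TRAJ18 was found in 13 members of mouse 32, each with another TRB key, and in 1 member of mouse 30. The sequences show that 11 of the 13 cells and the cell of mouse 30 carried the same CDR3 nucleotides, and the other pair of cells another form.
TRAV11 and TRAJ18, 11 cells of mouse 32 and 1 of mouse 30: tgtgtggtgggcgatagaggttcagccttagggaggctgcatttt
TRAV11 and TRAJ18, 2 cells of mouse 32: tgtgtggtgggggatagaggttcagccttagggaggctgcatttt
In mouse 32, Zbtb16, the transcription factor PLZF that directs NKT cell development, was found in 9 of the 13 cells at 329 CPM, beside 17.2 CPM in the other members. Il4 was at 447 CPM against 45.4 CPM, and Klrb1c, the receptor NK1.1, at 165 CPM against 21.8 CPM. The 1 such cell of mouse 30 held 7 Il4 UMIs and the only Zbtb16 UMI among the members of that mouse. The 13 cells of mouse 32 had no Cd8a or Cd8b1 UMI and 1 Cd4 UMI. Gzma was at 1669 CPM in them and 1774 CPM in the others. No member had the invariant α chain of mucosal-associated invariant T cells.

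Clustering of the members by expression, a description without a test, gave 8 clusters, most of them largely from 1 mouse. Several named clonotypes lay mainly in 1 cluster, but others were split. TRBV20 of mouse 30 had 7 and 5 of its 15 cells in different clusters, and TRBV13-2 of mouse 32 had 6 and 5 of 12. A cluster of 156 cells led by Gpm6b, Muc16 and Thsd7a held 154 cells of mouse 30, and 117 of its cells had no coreceptor UMI. A cluster of 139 cells led by Klrc1, Gzma and Gzmb held 133 cells of mouse 32, of which TRBV15 gave 35, and 100 cells of it were CD8-gated. A cluster of 99 cells led by Il21, Ccl4, Il10, Penk and Gzmk held 94 cells of mouse 30, with 25 of the 37 TRBV16 cells. A cluster of 124 cells had Foxp3 as its first gene, seen in 17.7% of its cells. It had 6 of 8 regulatory markers up (Foxp3, Il2ra, Ikzf2, Tnfrsf4, Ikzf4 and Itgb8). The list summed to 2608 CPM there and to 2597 CPM in the cluster of 156 cells, where Ikzf2 and Itgb8 were also up. The cluster of 124 cells held 103 cells of mouse 32, with 25 of the 29 TRBV5 and 10 of the 11 TRBV1 cells. A cluster of 87 cells led by Ramp3, Grb10 and Pard3 held 27 of the 29 TRBV3 and TRBJ1-1 cells. A cluster of 104 cells led by Myo1f, the one with the least uneven origin, held 62 cells of mouse 30 and 42 of mouse 32.

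The other 2 clusters carried genes of other lineages. A cluster of 39 cells was led by the neutrophil genes S100a8, S100a9, Ngp and Camp, with 34 cells from mouse 32. A cluster of 23 cells was led by the haemoglobin gene Hbb-bs, had all 10 proliferation genes up and a median of 14265 UMIs, 4.81 times the median of the members of the same mice. Whether these are doublets was not tested.

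The members were compared with the dominant clone of their own nodule, receptor segment genes left out and the mouse as a block. The question was how T cells beside the clone differ from it. With edgeR's quasi-likelihood test none of 11542 genes (0%) was called at the same threshold, while 855 reached an unadjusted p under 0.05. DESeq2 on the same counts called 165 genes (1.43%), 114 higher (0.988%) and 51 lower (0.442%) in the members.

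Effector, CD8 and killing genes were among the genes of smallest p that were higher in the members. Eomes was at 172 and 103 TMM-scaled CPM in the members and 2.44 and 0.822 CPM in the clones, a log2 difference of 6.58 ± 0.36 (edgeR adjusted p = 0.214, DESeq2 adjusted p = 3.96e-33). Cd8a, with a log2 difference of 7.58 ± 0.52, Fasl, at 30.8 and 110 CPM against 1.13 and 6.01 CPM, and Ifi213, an interferon-induced gene, at 50.2 and 51.2 CPM against 2.44 and 2.86 CPM, had the same edgeR adjusted p of 0.214. In all 4 genes both mice showed the same direction.

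Genes with the smallest p among those lower in the members were 4930554G24Rik (0 and 2.91 CPM against 13.0 and 193 CPM), the adhesion receptor Adgrl3 (4.56 and 5.23 CPM against 77.0 and 67.5 CPM), Shtn1 (39.9 and 8.14 CPM against 267 and 50.4 CPM), Ildr1 (2.28 and 11.6 CPM against 23.8 and 145 CPM) and Col12a1. The edgeR adjusted p was 0.214 for the first 4. Col12a1, a collagen gene, was at 4.56 and 0 CPM in the members against 125 and 0.143 CPM in the clones, so that its difference lay in mouse 30.

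Of the fixed lists, DESeq2 called 5 of 9 effector memory genes higher (Nkg7, Eomes, Ccl5, Ccl3 and Ccl4), with an edgeR median log2 difference of 3.96 beside −0.03 over all genes tested. It called 3 of 8 cytotoxic granule genes higher (Fasl, Gzma and Gzmb) and 4 of 9 tested genes of the innate-like list higher (the NK receptors Klrb1c, Klrd1, Klrk1 and Klrc1), a list that also holds γδ receptor genes and Fcer1g. Il4 and Il13, the cytokines of type 2 helper cells, and Cd80, a costimulatory ligand, were called lower. None of 10 T cell genes, 8 regulatory genes, 10 proliferation genes or 10 type I interferon genes was called. Il4 stood at 55.6 and 64.1 CPM in all members and at 225 and 178 CPM in the clones, and Cd80 at 54.5 and 36.7 CPM against 142 and 207 CPM. Neutrophil genes summed to 1863 and 873 CPM in the members and to 629 and 1870 CPM in the clones, and their part in these differences was not tested.

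Genes that mark each clone were low in its neighbours. Xcl1, a chemokine, was at 93.4 CPM in the members of mouse 30 against 971 CPM in the clone, and Cst3, the protease inhibitor cystatin C, at 149 against 2481 CPM. In mouse 32, Sorcs1, a sorting receptor, was at 26.9 against 556 CPM and Tprg at 4.38 against 401 CPM. These genes were picked after their values were seen.

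Members of expanded clonotypes were compared with members of single-cell clonotypes within each mouse. The edgeR test called 101 of 6887 genes (1.47%), 58 higher (0.842%) and 43 lower (0.624%) in the expanded members. This comparison was fragile: DESeq2 called 2 (Ccl3 and Gm2682), the fit without the block called 0 with 81 genes at an unadjusted p under 0.05, and the strict members gave 2 (Cxcl10 and Gm2682), so that none of the other genes named below was called in them. Of the 101, 83 moved the same way in both mice and 18 did not.

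The large rises came in part from single cells. Of the UMIs in the expanded members of mouse 32, 886 of 903 for Hbb-bs, 606 of 647 for Ngp, 549 of 593 for S100a8 and 108 of 113 for Ltf lay in 1 cell, and in mouse 30 the top cell held 311 of 334 for S100a8. Hbb-bs had no UMI in mouse 30. Chil3, Anxa1 and Tnfaip6, also among the largest rises, were lower in the expanded members of mouse 30. Grb10, an adaptor of growth factor receptors, rose in both mice, at 26.5 and 80.1 CPM against 5.90 and 7.25 CPM (log2 difference 3.16 ± 0.50, edgeR adjusted p = 1.47e-07). Hspb1, a heat shock protein, was at 84.9 and 58.4 CPM against 14.8 and 12.1 CPM (2.36 ± 0.41, edgeR adjusted p = 4.07e-06). In mouse 30 Hspb1 was seen in 5 of 155 expanded and 3 of 112 single members, and 1 expanded cell held 14 of 32 UMIs. In mouse 32 it was seen in 11 of 166 and 6 of 177, and the top expanded cell held 13 of 43 UMIs. Of the Grb10 values in mouse 30, 10 UMIs stood against 2, and in mouse 32 the TRBV3 and TRBJ1-1 clonotype alone was at 309 CPM (15 of 29 cells) beside 25.0 CPM in the other members. In the strict members the log2 difference was 3.78 for Grb10 (edgeR adjusted p = 0.0707) and 2.39 for Hspb1 (edgeR adjusted p = 0.0959). Ifitm6, Plaur and Retnlg, which neutrophils also express, rose by log2 differences of 2.48 to 3.66. The top cell held 22 of 25 Retnlg UMIs of the expanded members in mouse 30 and 16 of 20 in mouse 32.

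Lower in the expanded members of both mice was Ccl3, a chemokine, at 194 and 44.8 CPM against 573 and 180 CPM (log2 difference −1.75 ± 0.24, edgeR adjusted p = 2.12e-10), which DESeq2 also called. The gene model Gm2682 was at 76.9 and 128 CPM against 248 and 487 CPM. Txk, a kinase of T cell receptor signalling, was at 26.5 and 44.8 CPM against 79.7 and 174 CPM. Btbd11, Tmem176b, Cmah, Fgf13, Ifngas1, Samd3, Gm15987 and Ms4a6c were also among the genes with the largest falls, and all were lower in both mice.

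Of 9 effector memory genes 5 were called lower (Ccl3, Ccl5, Nkg7, Ccl4 and Ly6c2), with a median log2 difference of −0.72 beside −0.0021 over all genes. The calls of Ccl5 and Ccl4 do not describe both nodules. Ccl5 was at 6355 CPM in expanded and 4720 CPM in single members of mouse 30, and at 3605 and 8004 CPM in mouse 32. Ccl4 was at 4448 and 3773 CPM in mouse 30 and at 657 and 1447 CPM in mouse 32. Ikzf2 rose from 711 and 226 CPM to 1069 and 496 CPM (log2 difference 0.86 ± 0.17, edgeR adjusted p = 0.000231), and with Itgb8 made 2 of 6 regulatory genes that were called higher. Il10 was at 1231 and 118 CPM against 396 and 105 CPM, a difference that lay mostly in mouse 30. In mouse 32 each group held 87 Il10 UMIs. The TRBV16 and TRBJ2-4 clonotype of mouse 30 alone was at 2141 CPM before TMM scaling. Satb1, a chromatin organiser of the naive and central memory list, fell from 103 and 379 CPM to 61.0 and 172 CPM. Of 9 tested proliferation genes 1 was called, Mki67, at 117 and 342 CPM against 112 and 114 CPM, a difference that lay in mouse 32, where the strict members kept 58 of 252 Mki67 UMIs.

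The members were set beside T cells of the 5 BCR-profiled nodules, which were taken by the T cell gate since their receptors were not profiled. The same gate left 309 and 340 members. The 2 sides were still not chosen alike. Members also needed a TRB contig and excluded the dominant clone, whereas the other T cells needed no contig and kept any T cell clone. CD8-gated cells were 16.9% of the singly gated members in mouse 30 and 75.0% in mouse 32, and between 33.5% and 65.1% in the other 5 mice. After thinning to 1000 UMIs, without the T cell gate for the members, the share was 25.4% and 75.7% in the members and between 39.6% and 75.2% in the other mice. The means were 46.0% ± 41.0 (SD, n = 2) and 50.3% ± 13.2 (SD, n = 5), and the exact two-sided permutation test of the difference of −4.33 percentage points gave p = 0.857. The smallest p this design allows is 0.0952.

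Foxp3 UMIs were found in 1 of 98 CD4-gated members of mouse 30 (1.02%) and in 2 of 44 of mouse 32 (4.55%), and in 0% to 9.45% of CD4-gated cells of the other mice. The difference of −1.23 percentage points gave p = 0.762 by the same exact permutation test, and after thinning to 1000 UMIs it was 0.303 percentage points. This share leaves out Foxp3-bearing cells without a Cd4 UMI and is not the whole regulatory fraction. After thinning, 5 of 336 and 12 of 418 members had a Foxp3 UMI, of which 1 in each mouse was CD4-gated. In TRBV5 with TRBJ2-2 of mouse 32, 9 of 29 cells had Foxp3 but only 2 were CD4-gated.

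**Figure D5:**
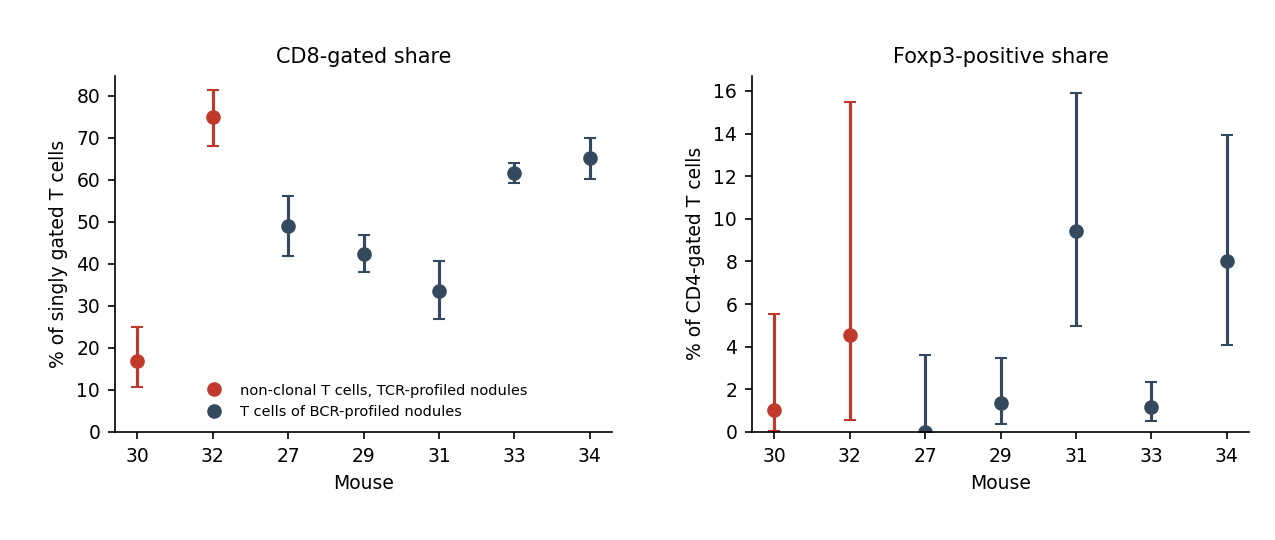
Share of CD8-gated cells among singly gated T cells (left, %) and of Foxp3-bearing cells among CD4-gated T cells (right, %) in each mouse, with exact binomial 95% intervals. Red points are the non-clonal T cells of mice 30 and 32 and dark points the T cells of the 5 BCR-profiled nodules. On the left the red points lie at 16.9% and 75.0%, outside the range of the dark points.

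Across genes, edgeR called none of 10132 (0%) between the members and these T cells, while 362 reached an unadjusted p under 0.05, and DESeq2 called 12, all lower in the members. Those 12 included genes of B cells and macrophages. Ebf1, a B cell transcription factor, was at 1.18 and 0 CPM in the members and between 27.4 and 31.4 CPM in the other 5 mice (log2 difference −5.91 ± 0.65, edgeR adjusted p = 0.112). The class II genes H2-Aa and H2-Eb1 were at 3.53 and 6.18 CPM and at 4.71 and 4.81 CPM in the members, against 42.2 to 157 CPM and 40.0 to 153 CPM. Apoe and C1qc, which macrophages express, were at 3.53 and 1.37 CPM and at 0 in both mice, against 48.4 to 296 CPM and 15.1 to 73.6 CPM. Macrophage markers had a median log2 difference of −6.21 over 5 genes tested, and the part of such RNA in the comparison was not tested.

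The genes of smallest p that were higher in the members were Snhg17, Gzma, Spire1, Cpox and Trib3, none of them called. Gzma was at 145 and 2148 CPM in the members and between 14.3 and 145 CPM in the other mice (log2 difference 3.84 ± 0.94, edgeR adjusted p = 0.980), so that the member value of mouse 32 alone lay above their range. The label's markers gave log2 differences of −0.07 ± 0.25 for Cd3e, −0.14 ± 0.76 for Cd8a, −0.30 ± 0.70 for Ccl5, −0.63 ± 0.52 for Eomes and 0.03 ± 0.71 for Gzmk. Ccl5 was between 1524 and 16178 CPM in the other mice, and the members of both mice lay within that range. None of 10 T cell, 9 effector memory, 8 regulatory or 11 helper genes was called by edgeR. The helper list had 9 of 11 fitted higher in the members, with a median log2 difference of 0.80 beside −0.03 over all genes.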

How the data were processed

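White nodules were dissociated and depleted of dead cells by the study before SeekOne droplet libraries were made. The labels name a 5′ kit and the methods a 3′ kit for RNA, so the read end is not settled. The values are counts: the authors deposited UMI counts for every gene and cell, with GRCm38 and mm10 named in the submitters' processing notes and the aligner not given in the sources used here. Contigs with read and UMI counts were assembled by the authors with SeekSoulTools and annotated with IMGT. Cells were kept with over 200 UMIs, over 100 genes and at most 10% mitochondrial UMIs. The members and gene lists were chosen with earlier results of these data known.

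Counts were summed per mouse and group, without 640 receptor segment genes, and tested with edgeR 4.0.16 (filterByExpr, TMM, quasi-likelihood F test, Benjamini-Hochberg), and DESeq2 1.42.0 as an alternative. Standard errors were taken from the fold change and its F statistic. Groups of 1 mouse were paired by the nodule they came from and the mouse was a block. P-values rest on 2 nodules where members are compared with each other or the clone. With 1 residual degree of freedom, spread was borrowed across genes. For each test, genes named were the 10 of largest change per direction past the threshold, or the 5 of smallest p where fewer than 5 passed, and genes of the lists. Clusters used scanpy 1.11.5 on 1000 variable genes and 15 components. Scripts were tested on simulated data. A few genes are not reported here.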

Additional observations from a re-analysis of the deposited data

How the results depend on the processing

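Gene tests moved most. Between members and clone, the count of 0 became 165 with DESeq2 and 197 without the filter on low counts, and stayed 0 without the replicate block, in strict members and in CD4-gated cells. Between CD8-gated and CD4-gated members, 39 became 6 with DESeq2, 2 without the replicate block and 16 in strict members. Between expanded and single members, 101 became 2 with DESeq2, 0 without the block, 2 in strict members, 53 with expansion set at 2 members, 55 at 10 members and 3 in CD8-gated members. Against T cells of BCR-profiled nodules, 0 became 12 with DESeq2, and leaving out 1 mouse gave 0 to 13 calls, with 13 without mouse 29 and 2 without mouse 30. Without mouse 29, neutrophil genes such as S100a8 and Ngp were among the calls.

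The CD8-gated share of mouse 30 was 25.4% after thinning. The expanded share of mouse 30 was 68.1% at 2 members and 31.9% at 10 members; that of mouse 32 was 57.9% and 31.2%, 25.1% with TRB and TRA keys together and 34.6% in strict members. The key of J gene and CDR3 without V, chosen after seeing the data, gave 44.7% and 39.5%. The CD8 share difference to BCR-profiled nodules lay between −33.4 and 24.7 percentage points when 1 mouse was left out, with the sign turned without mouse 30. The Foxp3 difference lay between −2.99 and 0.536, positive without mouse 30 and, at 0.133, without mouse 31, and was 0.303 after thinning.

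Leaving out 1 of the paired mice leaves a value with no test. Log2 differences of 1 mouse alone, the first value being that without mouse 32 and the second that without mouse 30, were 1.30 and −3.24 for Gm44206, −0.60 and 5.52 for Ltf, −0.90 and 4.15 for Tnfaip6, −1.78 and 3.26 for Anxa1, and −0.44 and 2.63 for Chil3, so that the sign turned without mouse 32, and Hbb-bs was at −0.41 with expansion set at 10 members. Of 63 alternative values of the main results, 38 kept their direction, call or size, 21 moved and 4 turned in sign. The count of 0 without the block had 458 genes at an unadjusted p under 0.05 between members and clone. The cause was not tested. At the depth of these libraries 219 and 217 members had no coreceptor UMI and stayed ungated.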
